A study of Mus musculus with 12 samples.

Results

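The genes described here are 44 interferon-stimulated genes outside antigen presentation, taken from the deposited count table by their mouse symbols. All 44 were found among 55421 gene identifiers, and all 44 passed the filter on low counts that left 17394 genes to test. The 12 libraries were made from small intestinal RNA of mice in 3 groups of 4. The Apc Eif3h mice carried floxed Apc and floxed Eif3h alleles with VilCreER, and the Apc mice carried floxed Apc alleles with VilCreER. VilCreER is a Cre recombinase that tamoxifen activates and that the villin promoter drives in gut epithelium, so the other cells of the tissue keep both genes. The third group was wild type (WT). Tamoxifen was injected 2 times at 80 mg/kg, 24 hours apart. The labels give day 4 for Apc Eif3h and for Apc and day 7 for WT, while the treatment text gives a harvest after 7 days, so genotype and day cannot be told apart in comparisons with WT. All 4 Apc Eif3h libraries came from males, and Apc and WT each held 3 males and 1 female. The females were Apc replicate 1 and WT replicate 4. The sources used here give no ages. The labels do not say whether each replicate is its own animal, and the p-values therefore cover only the variation among these libraries, part of which may be technical. Apc restrains Wnt signalling by helping to degrade beta-catenin, and the Eif3h protein is the h subunit of eIF3, a complex that helps ribosomes start translation. The question was how the levels of interferon-stimulated genes differ when Apc is lost alone or together with Eif3h.

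Library totals were 10483112 to 21298301 counts. Levels are given as CPM, the read count scaled to library depth with TMM factors. Eif3h was at 28.3, 43.1, 54.6 and 25.9 CPM in the Apc Eif3h libraries, against 158 to 175 CPM in Apc and 126 to 142 CPM in WT. Apc was at 92.8 to 121 CPM in Apc Eif3h, 106 to 123 CPM in Apc and 87.4 to 98.3 CPM in WT, and since reads were counted over the whole gene, these values do not check whether the floxed part was deleted. The tissue label was checked with the enterocyte gene Fabp2, which was at 2044 to 4806 CPM in Apc Eif3h, 2091 to 3821 CPM in Apc and 2739 to 5286 CPM in WT. Apc Eif3h replicate 2 stood apart on the second principal component, at 61.7, where no other library was above 18.7. It held the B cell gene Cd79a at 83.8 CPM, against 1.68 to 1.87 CPM in the other Apc Eif3h libraries. In these bulk samples, fewer cells of a type and less RNA per cell cannot be told apart.

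Interferons are secreted proteins that warn tissues of infection. Type I interferons and the epithelial type III interferons activate the kinases Jak1 and Tyk2 and a complex that contains Stat2 and Irf9 and binds interferon-stimulated response elements (ISREs) in promoters. Interferon gamma, made mainly by T and NK cells, activates Jak1 and Jak2, acts through gamma-activated sites (GAS) in promoters and induces Irf1. The genes switched on this way sense viral nucleic acids, block viral replication, attack vacuoles that hold parasites and bacteria, and recruit lymphocytes. In the gut, interferon signalling and interferon-stimulated genes take part in the defence of the epithelium against viruses and intracellular parasites.

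The promoters of 5 genes are printed because they show the interferon motifs that recur among the genes discussed. Windows of 300 bases, from 250 before to 50 after the start site, were available from RefSeq (GRCm38.p6) for 31 of the 44 genes. The ISRE-like motif searched was GAAA, any 2 bases and GAAA again, and the GAS-like motif was TTCNNNGAA, each on both strands, and matches of the 2 motifs can overlap. An ISRE-like match was found for 19 of 31 genes (61.3%), against 3.99% of 27025 genes with a window. A GAS-like match was found for 10 of 31 (32.3%), against 9.55% of all genes with a window. Both motifs were present for 6 genes and neither for 8. Sequences are given 5′ to 3′ on the gene's strand, with the matched bases in capitals. Isg15 (chr4:156200769-156201068, minus strand) had 3 overlapping ISRE-like matches, Gbp2 (chr3:142620413-142620712, plus strand) and Cxcl10 (chr5:92348840-92349139, minus strand) had 1 each, Irf1 (chr11:53769764-53770063, plus strand) had 1 GAS-like match, and Irgm2 (chr11:58214727-58215026, plus strand) had 1 of each.
Isg15: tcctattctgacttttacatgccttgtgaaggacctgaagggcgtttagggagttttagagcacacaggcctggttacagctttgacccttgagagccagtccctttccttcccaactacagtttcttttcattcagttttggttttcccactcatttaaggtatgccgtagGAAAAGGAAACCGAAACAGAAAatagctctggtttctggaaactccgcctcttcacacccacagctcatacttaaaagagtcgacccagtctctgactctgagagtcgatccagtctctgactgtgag
Gbp2: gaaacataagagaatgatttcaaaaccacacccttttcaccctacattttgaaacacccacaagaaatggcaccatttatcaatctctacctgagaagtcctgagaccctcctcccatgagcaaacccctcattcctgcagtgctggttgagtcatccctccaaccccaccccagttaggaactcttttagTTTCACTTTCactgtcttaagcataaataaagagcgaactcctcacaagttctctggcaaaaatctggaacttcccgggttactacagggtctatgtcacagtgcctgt
Cxcl10: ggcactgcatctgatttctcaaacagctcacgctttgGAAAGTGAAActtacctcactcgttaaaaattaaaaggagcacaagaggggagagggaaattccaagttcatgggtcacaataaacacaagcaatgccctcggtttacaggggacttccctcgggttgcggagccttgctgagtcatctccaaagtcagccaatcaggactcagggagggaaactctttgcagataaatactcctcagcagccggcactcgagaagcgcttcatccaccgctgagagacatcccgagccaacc
Irf1: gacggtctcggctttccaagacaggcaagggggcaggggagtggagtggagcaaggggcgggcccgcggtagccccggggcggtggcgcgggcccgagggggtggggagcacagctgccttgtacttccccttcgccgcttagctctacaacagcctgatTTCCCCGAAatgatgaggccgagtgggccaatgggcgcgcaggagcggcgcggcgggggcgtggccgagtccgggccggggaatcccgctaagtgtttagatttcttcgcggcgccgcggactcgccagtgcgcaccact
Irgm2: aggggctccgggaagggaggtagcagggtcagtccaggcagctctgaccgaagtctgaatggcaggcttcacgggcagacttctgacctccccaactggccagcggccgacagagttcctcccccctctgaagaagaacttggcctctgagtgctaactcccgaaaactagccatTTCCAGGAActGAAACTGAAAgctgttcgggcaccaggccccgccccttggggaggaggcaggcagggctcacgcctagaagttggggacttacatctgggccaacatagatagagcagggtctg
Counted with the first base of the start site as 0, the Isg15 matches began at -78, -72 and -66. The Gbp2 match began at -59 and read TTTCACTTTC on the gene's strand, which is the motif on the opposite strand. The Irgm2 GAS-like match began at -75 and its ISRE-like match at -64, side by side, and the neighbouring gene Igtp had the same pair of motifs at -45 and -34. Irf1 had its match at -90, and Cxcl10 had its match farther out at -213. A match describes the letters in a window and is not a measured binding site.

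**Figure D1:**
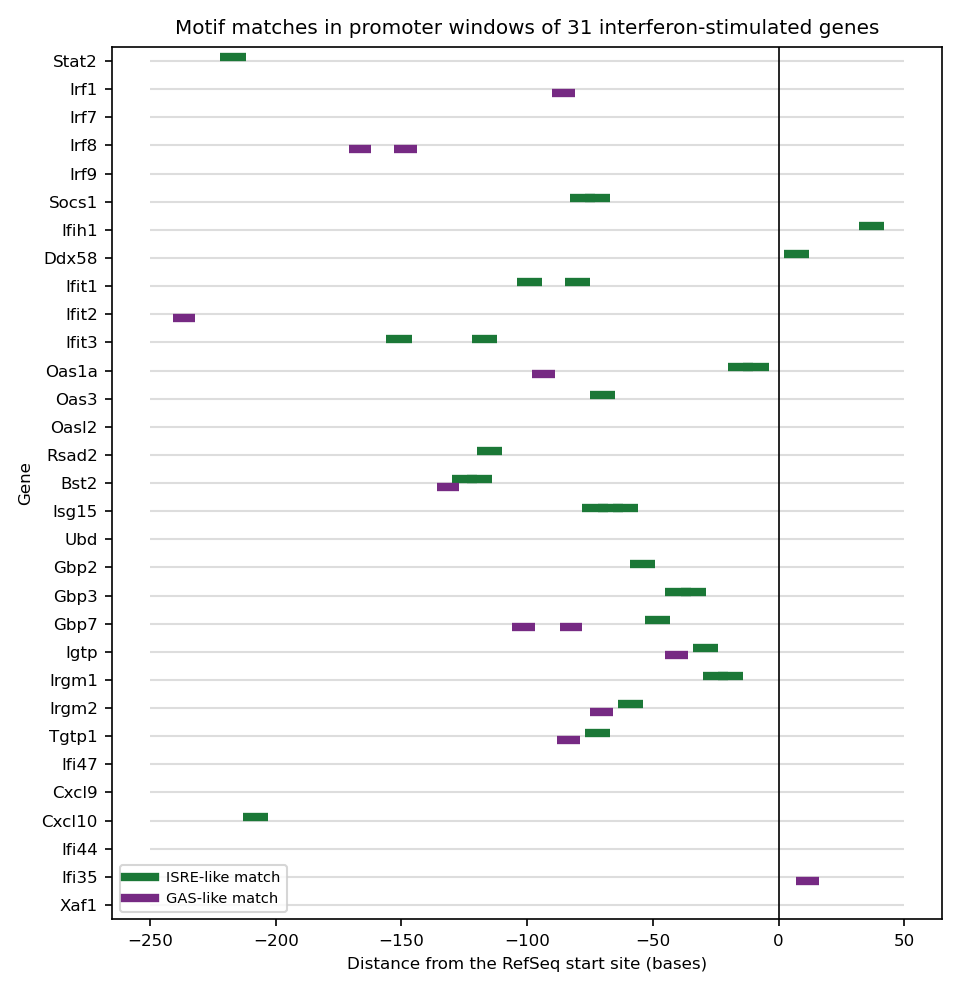
Positions of ISRE-like (green) and GAS-like (purple) matches relative to the RefSeq start site, in bases, for the 31 genes with a promoter window. Most matches lay within the 150 bases before the start site, and 8 genes had no match.

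Between Apc Eif3h and Apc, 1 of the 44 genes was higher in Apc Eif3h and 0 were lower. The gene that rose was Cxcl10, which encodes a chemokine that draws T cells. The calls were made with edgeR's quasi-likelihood test at an adjusted p below 0.05 (Benjamini-Hochberg over 17394 genes), and among all genes 4.27% were called higher and 2.78% lower. Without the adjustment, 4 genes were higher and 2 lower at p below 0.05, and DESeq2 called 2 higher (Cxcl10 and Ifi35) and 0 lower. The libraries of the 2 groups did not overlap for 3 of the 44 genes, Cxcl10, Ifit3 and Ifi35, all higher in Apc Eif3h, against 7.89% of all genes higher and 7.26% lower. The median log2 fold change was 0.14, against -0.00 over all genes.

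Against WT, the genes called were all lower, and 25 of 44 in Apc Eif3h and 20 of 44 in Apc were not called. Of the 44, 19 (43.2%) were lower and 0 higher in Apc Eif3h against WT, where 28.1% of all genes were lower and 29.8% higher. The median log2 fold change was -0.59, against -0.03 over all genes. In Apc against WT, 24 of 44 (54.5%) were lower and 0 higher, where 24.1% of all genes were lower and 27.7% higher. The median was -0.72, against -0.01 over all genes. DESeq2 called 20 lower in Apc Eif3h and 27 lower in Apc, with 0 higher in each, and without the adjustment 21 and 27 were lower and 0 higher in each. Apc libraries lay wholly below WT libraries for 15 genes (22% of all genes did so), and Apc Eif3h libraries did for 10 (20.7% of all genes). The 2 comparisons share the WT libraries. The shares of all genes called lower, 28.1% in Apc Eif3h and 24.1% in Apc, also stand beside the counts by role below. With library totals as the only scaling, which moved the median of all genes to 0.17 in Apc Eif3h against WT and 0.22 in Apc against WT, 11 and 13 were lower and 1 in each was higher (Cxcl10 and Ifit2). Among the calls, 9 in Apc Eif3h against WT held in all 19 alternatives, 12 of which left out 1 library: Irf1, Ifih1, Ddx58, Gbp2, Gbp4, Gbp7, Irgm2, Parp9 and Parp14. In Apc against WT 13 did: Irf1, Ifih1, Ddx58, Ubd, Gbp2, Gbp3, Gbp4, Igtp, Irgm2, Ifi27, Ifi35, Parp9 and Parp14.

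**Figure D2:**
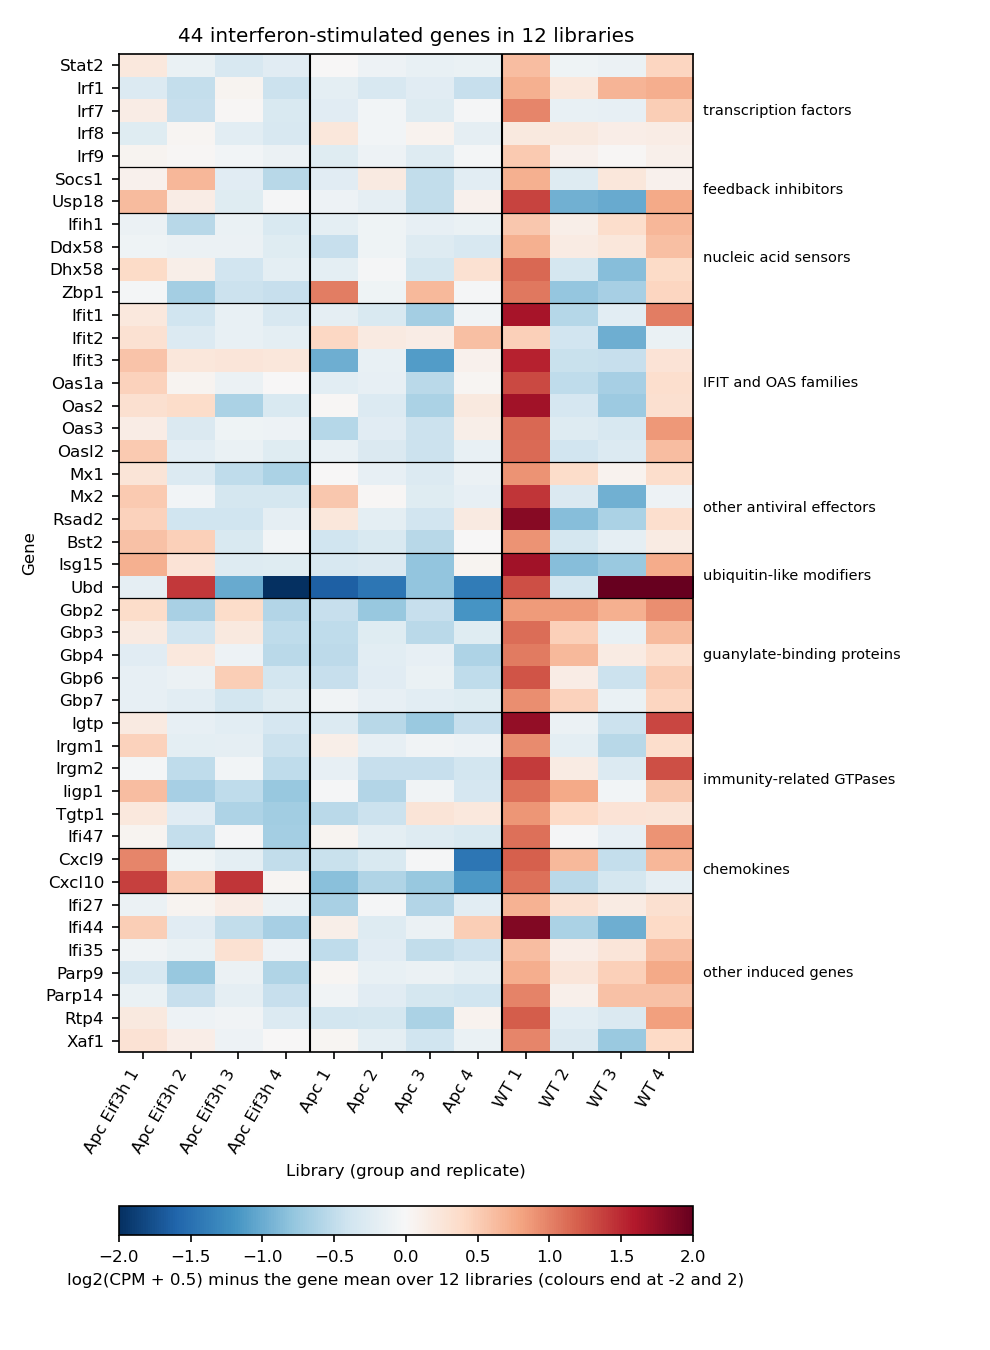
Each row is 1 of the 44 genes, grouped by role, and each column is 1 library. Colour is log2(CPM + 0.5) minus the gene's mean over the 12 libraries, from -2 (blue) to 2 (red). WT replicates 1 and 4 are the reddest columns, WT replicates 2 and 3 are mixed, and the Apc Eif3h and Apc columns are mostly pale, with Ubd and the chemokines among the stronger colours.

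Per kilobase of exon, which allows levels of different genes to be compared, Ifi35 had the highest mean of the 44 in each group, at 70.8 CPM per kb in Apc Eif3h, 53.1 in Apc and 94.0 in WT. Isg15 came next, at 56.6, 40.5 and 75.9 CPM per kb in the same order. Gbp6 and Tgtp1 were the lowest, at 0.198 and 0.162 CPM per kb in Apc Eif3h, 0.141 and 0.210 in Apc, and 0.314 and 0.383 in WT. These 2 levels were near the lower limit of what the libraries measured, and both genes have near-identical copies (Gbp10 and Tgtp2), so their reads may be split.

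Of the 5 transcription factors, 2 were lower in Apc Eif3h against WT (Irf1 and Irf8), 2 in Apc against WT (Irf1 and Irf9) and 0 changed between Apc Eif3h and Apc. Irf1, an interferon-induced factor that activates promoters of antiviral and antigen presentation genes, was at 146, 127, 184 and 131 CPM in Apc Eif3h, 155, 141, 151 and 128 CPM in Apc, and 291, 205, 285 and 293 CPM in WT. The lowest WT library was above every other library. Irf1 fell by 0.87 on the log2 scale in Apc Eif3h against WT (SE 0.14, adjusted p = 0.000229) and by 0.90 in Apc against WT (SE 0.14, adjusted p = 0.000249). Between Apc Eif3h and Apc the difference was 0.03 (SE 0.14, adjusted p = 0.922), with overlapping libraries. Irf8, a factor of myeloid and B cells, was at 89.6, 109, 91.6 and 84.7 CPM in Apc Eif3h, 124, 102, 112 and 94.1 CPM in Apc, and 121, 122, 116 and 118 CPM in WT. It was the steadiest of the 44 genes in WT, and its highest Apc Eif3h library was the one rich in B cell transcripts. Irf8 fell by 0.35 in Apc Eif3h against WT (SE 0.10, adjusted p = 0.00862), a call lost with library totals as the only scaling (-0.15, adjusted p = 0.283). Irf9, a DNA-binding partner of Stat2, was at 70.3, 69.1, 65.3 and 62.3 CPM in Apc Eif3h, 57.3, 63.3, 56.8 and 65.9 CPM in Apc, and 97.4, 71.8, 69.3 and 72.7 CPM in WT. It fell by 0.35 in Apc against WT (SE 0.11, adjusted p = 0.0141) and by 0.23 without WT replicate 1 (adjusted p = 0.0311). The call was lost with library totals only (-0.13, adjusted p = 0.396) and in males only (-0.36, adjusted p = 0.0503). Irf7, which amplifies type I interferon production, and Stat2 had log2 fold changes of -0.51 and -0.34 in Apc against WT and did not pass the test (adjusted p = 0.0752 and 0.0988). For both, WT replicates 1 and 4 were high and WT replicates 2 and 3 lay among the Apc libraries.

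The feedback inhibitors Usp18 and Socs1 did not pass the test in any comparison. Usp18, which removes Isg15 from proteins and blocks the type I receptor, was at 35.8, 25.4, 19.2 and 22.4 CPM in Apc Eif3h, 21.2, 20.1, 16.1 and 24.2 CPM in Apc, and 59.0, 11.5, 11.1 and 39.0 CPM in WT. WT replicates 2 and 3 were the lowest of all 12 libraries and WT replicates 1 and 4 the highest. Socs1, an inhibitor of the Jak kinases, was at 4.14, 6.37, 3.23 and 2.46 CPM in Apc Eif3h, 3.21, 4.44, 2.61 and 3.27 CPM in Apc, and 6.66, 3.13, 4.57 and 4.12 CPM in WT. Its log2 fold changes were 0.24 in Apc Eif3h against Apc (SE 0.31, adjusted p = 0.686), -0.20 in Apc Eif3h against WT (SE 0.31, adjusted p = 0.589) and -0.44 in Apc against WT (SE 0.31, adjusted p = 0.247).

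Among 4 sensors of viral nucleic acids, Ifih1 and Ddx58 were lower in both groups against WT. Ifih1 encodes the RNA sensor MDA5 and was at 82.8, 60.9, 81.7 and 73.1 CPM in Apc Eif3h, 78.8, 85.2, 80.7 and 82.1 CPM in Apc, and 131, 97.8, 115 and 143 CPM in WT. Every WT library was above every other library. Ifih1 fell by 0.70 in Apc Eif3h against WT (SE 0.12, adjusted p = 0.000377) and by 0.57 in Apc against WT (SE 0.12, adjusted p = 0.00181). Ddx58 encodes the RNA sensor RIG-I and was at 63.8, 62.2, 62.3 and 57.0 CPM in Apc Eif3h, 49.1, 63.6, 56.4 and 54.5 CPM in Apc, and 111, 76.4, 79.8 and 103 CPM in WT. It likewise separated WT from the rest, falling by 0.59 in Apc Eif3h against WT (SE 0.12, adjusted p = 0.00122) and by 0.73 in Apc against WT (SE 0.12, adjusted p = 0.000409). Dhx58, the third RIG-I-like helicase, had log2 fold changes of -0.28 in Apc Eif3h against WT and -0.33 in Apc against WT (adjusted p = 0.513 and 0.441). Zbp1, a sensor of Z-form nucleic acids that can trigger necroptosis, was at 61.0, 38.8, 46.4 and 45.4 CPM in Apc Eif3h, 128, 59.1, 98.3 and 61.6 CPM in Apc, and 131, 36.5, 39.6 and 84.8 CPM in WT. All but replicate 1 of the Apc Eif3h libraries were below every Apc library. The difference of -0.85 between Apc Eif3h and Apc (SE 0.38, adjusted p = 0.194) did not pass the test.

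The IFIT proteins bind foreign RNA, and the OAS enzymes make the second messenger that activates RNase L. Of these 7 genes, 0 were called in Apc Eif3h against WT and 2 (28.6%) were lower in Apc against WT. Of all genes, 28.1% were lower in Apc Eif3h against WT and 24.1% in Apc against WT. Ifit1 was at 90.1, 59.2, 69.9 and 62.4 CPM in Apc Eif3h, 69.1, 63.0, 48.6 and 74.1 CPM in Apc, and 244, 52.3, 67.2 and 159 CPM in WT. WT replicates 1 and 4 were far above all other libraries, and WT replicates 2 and 3 lay among the Apc Eif3h and Apc libraries. Ifit1 fell by 1.04 in Apc against WT (SE 0.38, adjusted p = 0.0384). It kept that call in 6 of 12 fits that left out 1 library, and lost it without WT replicate 1 (-0.54, adjusted p = 0.173) or 4 (0.0908) and without Apc replicate 1 (0.0657), 2 (0.0715), 3 (0.0968) or 4 (0.0559). In Apc Eif3h against WT the difference was -0.89 (SE 0.38, adjusted p = 0.0622), which passed without WT replicate 2 (0.0111) or 3 (0.0249). Oas3 was at 54.4, 40.3, 46.1 and 45.9 CPM in Apc Eif3h, 32.8, 42.0, 36.4 and 53.6 CPM in Apc, and 110, 41.0, 39.1 and 89.7 CPM in WT, the same layout as Ifit1. It fell by 0.76 in Apc against WT (SE 0.30, adjusted p = 0.0459) and kept the call in 4 of 12 fits. The call was lost without WT replicate 1 (-0.46, adjusted p = 0.175) or 4 (0.126), without Apc replicate 1 (0.115), 2 (0.0771) or 3 (0.103), and without Apc Eif3h replicate 1 (0.0525), 3 (0.053) or 4 (0.0582). Ifit3 was at 24.5, 19.4, 19.5 and 19.2 CPM in Apc Eif3h, 8.10, 14.8, 7.29 and 17.5 CPM in Apc, and 48.5, 11.9, 11.8 and 19.9 CPM in WT. All Apc Eif3h libraries were above all Apc libraries, but the difference of 0.78 (SE 0.42, adjusted p = 0.283) did not pass the test. Ifit3 and Oas1a have near-identical copies (Ifit3b and Oas1g), so their counts may be split. Ifit2 was the member with the highest log2 fold change in Apc against WT, at 0.52 (SE 0.25, adjusted p = 0.0999). Oas1a, Oas2 and Oasl2 had values of -0.57 to -0.72 there and did not pass.

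Of the other 4 antiviral effectors, only Mx1 was called. Mx1, a dynamin-like GTPase that blocks influenza viruses, was at 8.29, 5.57, 4.65 and 4.20 CPM in Apc Eif3h, 6.86, 6.06, 5.55 and 6.28 CPM in Apc, and 13.2, 8.90, 7.15 and 8.82 CPM in WT. All Apc libraries were below all WT libraries, and 3 of 4 Apc Eif3h libraries were. Mx1 fell by 0.76 in Apc Eif3h against WT (SE 0.23, adjusted p = 0.0125), which library totals as the only scaling brought to 0.0678. It fell by 0.63 in Apc against WT (SE 0.23, adjusted p = 0.0339), which lost its call without WT replicate 1 (0.118) and without Apc replicate 2 (0.0648), 3 (0.0819) or 4 (0.0634). Rsad2, which encodes viperin, an enzyme that stalls viral RNA synthesis, was at 26.1, 14.1, 14.1 and 16.5 CPM in Apc Eif3h, 21.9, 16.3, 14.3 and 21.3 CPM in Apc, and 67.6, 10.1, 11.9 and 23.8 CPM in WT. Its WT values spanned a 6.68-fold range that held all the other libraries, and it did not pass (-0.68 and -0.62 against WT, adjusted p = 0.247 and 0.297). Bst2, the tetherin that holds budding viruses on cells, was at 55.5, 51.6, 29.8 and 35.6 CPM in Apc Eif3h, 28.0, 29.9, 25.0 and 37.2 CPM in Apc, and 69.6, 28.7, 32.4 and 41.4 CPM in WT. The difference of 0.52 between Apc Eif3h and Apc (SE 0.27, adjusted p = 0.264) did not pass the test. Mx2, annotated as a polymorphic pseudogene, was at 15.2 CPM in WT replicate 1 and at 8.01 CPM or lower in all other libraries.

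The ubiquitin-like modifiers Isg15 and Ubd differed from each other in which libraries were high. Isg15, which is joined to proteins during viral infection, was at 62.2, 45.6, 31.4 and 32.0 CPM in Apc Eif3h, 30.3, 31, 21.7 and 39.4 CPM in Apc, and 122, 20.8, 22.5 and 63.9 CPM in WT. The range of the WT libraries covered those of both other groups. Its log2 fold changes were 0.48 in Apc Eif3h against Apc, -0.43 in Apc Eif3h against WT and -0.91 in Apc against WT (SE 0.47, 0.47 and 0.48), and none passed (adjusted p = 0.584, 0.458 and 0.127). Ubd encodes FAT10, which is induced by interferon gamma and tumour necrosis factor and sends proteins to the proteasome. It was at 2.81, 9.53, 1.37 and 0.446 CPM in Apc Eif3h, 0.712, 0.888, 1.69 and 0.934 CPM in Apc, and 8.68, 2.42, 19.7 and 47.7 CPM in WT. All 4 Apc libraries were below all WT libraries. Ubd had the lowest log2 fold change of the 44 genes in both comparisons with WT, at -4.17 in Apc (SE 0.97, adjusted p = 0.00339) and -2.50 in Apc Eif3h (SE 0.84, adjusted p = 0.0225). The call in Apc Eif3h was lost without WT replicate 4 (-1.56, adjusted p = 0.116) or Apc Eif3h replicate 1 (0.051), 3 (0.0547) or 4 (0.0553). Apc Eif3h and Apc differed by 1.67 (SE 1.04, adjusted p = 0.356), and without Apc Eif3h replicate 2, the library rich in B cell transcripts, by 0.43 (adjusted p = 0.847).

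The guanylate-binding proteins coat vacuoles that hold pathogens. All 5 were lower in Apc against WT and 4 of 5, all but Gbp6, in Apc Eif3h against WT. Gbp2 was at 33.2, 16.1, 33.4 and 16.9 CPM in Apc Eif3h, 18.6, 14.9, 18.6 and 11.1 CPM in Apc, and 46.8, 46.8, 42.2 and 49.4 CPM in WT. The 4 WT libraries were close to each other and above all others, and Apc Eif3h replicates 1 and 3 lay between them and the Apc libraries. Gbp2 fell by 1.55 in Apc against WT (SE 0.25, adjusted p = 0.000294) and by 0.90 in Apc Eif3h against WT (SE 0.24, adjusted p = 0.00682), and Apc Eif3h and Apc differed by 0.66 (SE 0.24, adjusted p = 0.126). Gbp4 was at 9.49, 12.9, 10.3 and 7.50 CPM in Apc Eif3h, 7.57, 9.56, 9.85 and 7.06 CPM in Apc, and 23.4, 17.7, 12.5 and 14.2 CPM in WT. It fell by 0.99 in Apc against WT (SE 0.21, adjusted p = 0.00216). Gbp7 was at 16.6, 16.2, 14.5 and 15.6 CPM in Apc Eif3h, 17.8, 16.7, 16.2 and 15.7 CPM in Apc, and 36.2, 25.9, 17.1 and 25.5 CPM in WT. It fell by 0.74 in Apc Eif3h against WT (SE 0.17, adjusted p = 0.00291). Gbp3 fell by 0.99 in Apc against WT (adjusted p = 0.00478) and by 0.70 in Apc Eif3h against WT (adjusted p = 0.0246), where the call was lost without WT replicate 1 (-0.46, adjusted p = 0.0919) or Apc Eif3h replicate 2 (0.061) or 4 (0.0753). Gbp6, at 0.675 to 3.49 CPM over the 12 libraries, fell by 1.13 in Apc against WT (adjusted p = 0.0384), a call kept in 6 of 12 fits. It was lost without WT replicate 1 (-0.65, adjusted p = 0.175) or 4 (0.0697) and without Apc replicate 1 (0.077), 2 (0.0601), 3 (0.0522) or 4 (0.0948).

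**Figure D3:**
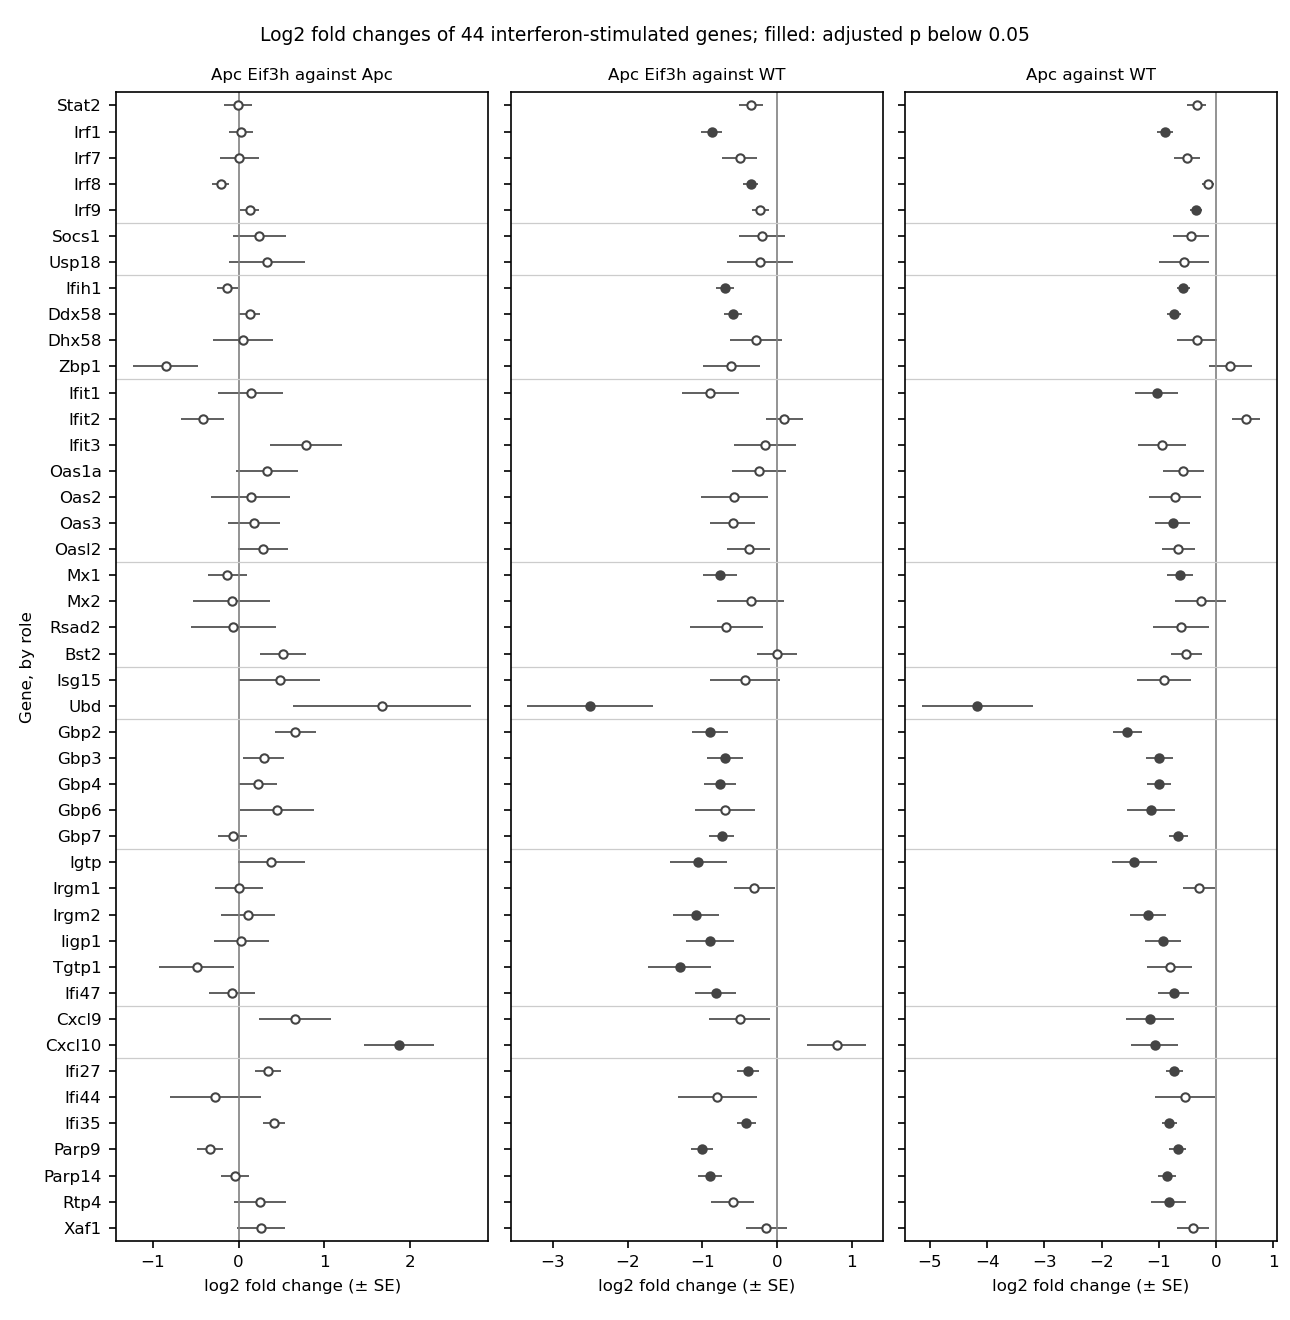
Log2 fold changes of the 44 genes in order of role, with bars of 1 SE, for Apc Eif3h against Apc (left), Apc Eif3h against WT (middle) and Apc against WT (right). Each panel has its own scale. Filled points passed an adjusted p below 0.05, of which there were 1, 19 and 24.

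The immunity-related GTPases also act on pathogen vacuoles and are induced by interferon gamma. Of 6 genes, 5 were lower in Apc Eif3h against WT and 4 in Apc against WT. Irgm2 was at 29.5, 21.2, 29.0 and 21.1 CPM in Apc Eif3h, 27.0, 21.8, 21.8 and 23.3 CPM in Apc, and 80.3, 33.8, 25.0 and 74.4 CPM in WT. WT replicates 1 and 4 were far above all others, and WT replicate 3 lay within the range of the other groups. Irgm2 fell by 1.08 in Apc Eif3h against WT (SE 0.31, adjusted p = 0.00941) and by 1.19 in Apc against WT (SE 0.31, adjusted p = 0.00655). Igtp, which encodes Irgm3, was at 46.1, 36.3, 34.9 and 32.1 CPM in Apc Eif3h, 33.6, 27.6, 24.0 and 29.5 CPM in Apc, and 139, 37.5, 30.1 and 103 CPM in WT. It had the same high WT libraries and fell by 1.43 in Apc against WT (SE 0.39, adjusted p = 0.00829). It fell by 1.05 in Apc Eif3h against WT (SE 0.38, adjusted p = 0.0326), where it lost its call without WT replicate 1 (-0.61, adjusted p = 0.142) or 4 (0.0918) or Apc Eif3h replicate 2 (0.0583), 3 (0.0677) or 4 (0.0787). Igtp and Irgm2 overlap on the same strand, so reads in the shared part cannot be told apart. Tgtp1 was at 0.936, 0.557, 0.310 and 0.268 CPM in Apc Eif3h, 0.356, 0.418, 0.979 and 0.934 CPM in Apc, and 1.78, 1.14, 0.998 and 0.989 CPM in WT. It fell by 1.30 in Apc Eif3h against WT (SE 0.42, adjusted p = 0.0181), which was lost without WT replicate 1 (0.0632) or Apc Eif3h replicate 4 (0.0637). Iigp1 and Ifi47 were lower in both comparisons with WT, by 0.90 and 0.82 in Apc Eif3h and by 0.93 and 0.74 in Apc on the log2 scale. All 4 calls were lost without WT replicate 1, with adjusted p = 0.0903 for Iigp1 and 0.0691 for Ifi47 in Apc Eif3h, and 0.0859 and 0.12 in Apc. In Apc Eif3h the Iigp1 call was also lost without WT replicate 2 (0.0609) or Apc Eif3h replicate 2 (0.0704), 3 (0.075) or 4 (0.0846), and the Ifi47 call without WT replicate 4 (0.0597) or Apc Eif3h replicate 4 (0.0591). In Apc the Iigp1 call was also lost without WT replicate 2 (0.0588) or Apc replicate 2 (0.0725) or 4 (0.0645), and the Ifi47 call without WT replicate 4 (0.0988) or Apc replicate 2 (0.0643), 3 (0.0745) or 4 (0.0789). Irgm1, a regulator of the other members, did not pass in any comparison (-0.30 in both against WT).

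Cxcl9 and Cxcl10 encode ligands of Cxcr3, the receptor that draws activated T and NK cells. Cxcl10 was at 22.7, 12.3, 23.7 and 8.75 CPM in Apc Eif3h, 4.54, 5.44, 4.84 and 3.58 CPM in Apc, and 18.8, 5.70, 6.57 and 7.50 CPM in WT. All Apc Eif3h libraries were above all Apc libraries, and above all WT libraries except replicate 1. Cxcl10 was 3.65-fold higher in Apc Eif3h than in Apc (log2 fold change 1.87, SE 0.41, adjusted p = 0.0188). It lost the call without Apc replicate 3 (0.0634) or 4 (0.0533) and in males only (0.0597), with log2 fold changes of 1.89, 1.76 and 1.86. In Apc Eif3h against WT the difference was 0.80 (SE 0.39, adjusted p = 0.0947), which passed without WT replicate 1 (1.35, adjusted p = 0.00451) or Apc Eif3h replicate 4 (1.02, adjusted p = 0.0388). In Apc against WT it fell by 1.07 (SE 0.41, adjusted p = 0.046). That call was kept in 6 of 12 fits, and was lost without WT replicate 1 (-0.52, adjusted p = 0.226) or 4 (0.0522) and without Apc replicate 1 (0.0846), 2 (0.0602), 3 (0.0782) or 4 (0.111). Cxcl9 was at 16.6, 7.67, 7.07 and 5.67 CPM in Apc Eif3h, 5.88, 6.58, 8.05 and 2.70 CPM in Apc, and 19.4, 13.2, 5.74 and 13.3 CPM in WT. The groups overlapped, and the difference between Apc Eif3h and Apc was 0.66 (SE 0.42, adjusted p = 0.368). Cxcl9 fell by 1.16 in Apc against WT (SE 0.42, adjusted p = 0.0348), a call kept in 6 of 12 fits and lost without WT replicate 1 (0.107), 2 (0.062) or 4 (0.0646) and without Apc replicate 1 (0.0659), 2 (0.0522) or 4 (0.0919).

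**Figure D4:**
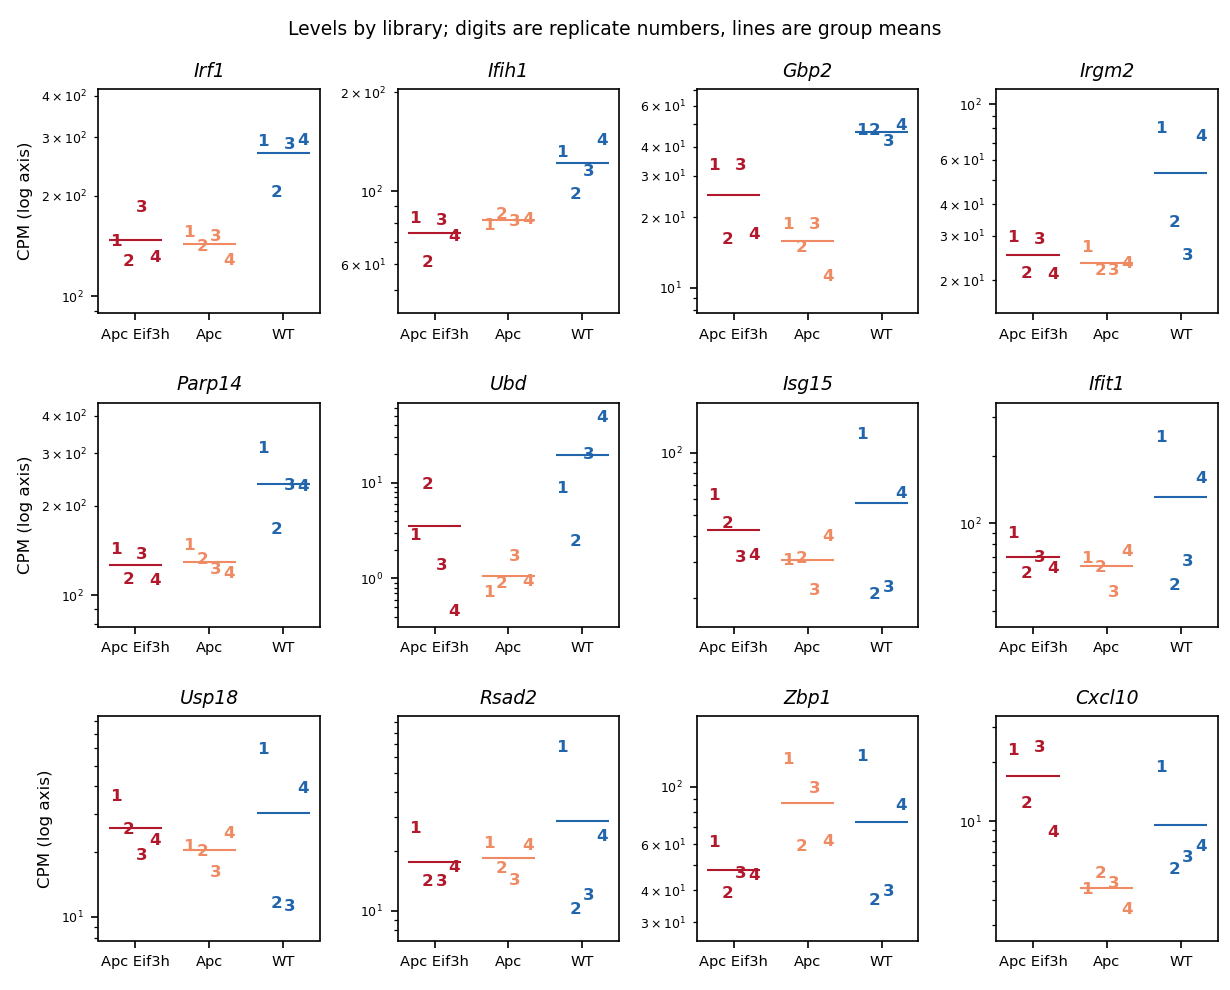
CPM on a log axis for 12 of the genes in Apc Eif3h (left), Apc (middle) and WT (right). Each digit is 1 library, named by its replicate number, and each line is the mean of 4. Irf1, Ifih1, Gbp2 and Parp14 have all WT libraries on top, Isg15, Ifit1, Usp18 and Rsad2 have WT replicates 1 and 4 high and 2 and 3 low, and Cxcl10 is higher in each Apc Eif3h library than in any Apc library.

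Of the 7 other induced genes, 5 were lower in Apc against WT (Ifi27, Ifi35, Parp9, Parp14 and Rtp4) and 4 in Apc Eif3h against WT (Ifi27, Ifi35, Parp9 and Parp14). Parp14, a mono-ADP-ribosyltransferase, was at 142, 113, 137 and 112 CPM in Apc Eif3h, 147, 132, 122 and 118 CPM in Apc, and 310, 166, 234 and 232 CPM in WT. All WT libraries were above all others. Parp14 fell by 0.90 in Apc Eif3h against WT (SE 0.16, adjusted p = 0.000484) and by 0.86 in Apc against WT (SE 0.16, adjusted p = 0.000822). Its relative Parp9 was at 78.2, 57.1, 90.2 and 64.1 CPM in Apc Eif3h, 99.8, 88.2, 89.7 and 85.2 CPM in Apc, and 162, 115, 136 and 165 CPM in WT. It had the smallest adjusted p of the 44 genes in Apc Eif3h against WT, where it fell by 1.0 (SE 0.15, adjusted p = 0.000121), and it fell by 0.67 in Apc against WT (SE 0.15, adjusted p = 0.00215). Ifi35, which encodes a leucine zipper protein, was at 116, 111, 150 and 113 CPM in Apc Eif3h, 85.2, 104, 86.3 and 91.1 CPM in Apc, and 186, 133, 144 and 186 CPM in WT. All Apc Eif3h libraries were above all Apc libraries, and WT replicates 1 and 4 were above all others. Ifi35 fell by 0.82 in Apc against WT (SE 0.13, adjusted p = 0.000334), and its difference of 0.41 between Apc Eif3h and Apc (SE 0.13, adjusted p = 0.0801) missed the threshold with edgeR and passed it with DESeq2 (adjusted p = 0.0265). It fell by 0.41 in Apc Eif3h against WT (adjusted p = 0.0184), a call lost without WT replicate 1 (0.0567) or 4 (0.0598) or Apc Eif3h replicate 4 (0.0542). Ifi27, a mitochondrial protein, fell by 0.73 in Apc against WT (adjusted p = 0.00161) and by 0.39 in Apc Eif3h against WT (adjusted p = 0.0392). That second call was kept in 6 of 12 fits and lost without WT replicate 1 (-0.27, adjusted p = 0.131), 2 (0.051) or 4 (0.0552) and without Apc Eif3h replicate 1 (0.0916), 2 (0.0548) or 4 (0.0982). Rtp4, a chaperone of receptors, fell by 0.83 in Apc against WT (adjusted p = 0.0318), a call lost without WT replicate 1 (-0.50, adjusted p = 0.124) or 4 (0.0858) or Apc replicate 1 (0.0685), 2 (0.0645) or 3 (0.085). Ifi44 and Xaf1 did not pass in any comparison.

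The WT libraries differed from each other more than those of the other groups did. The highest library was above the lowest by a median of 1.62-fold over the 44 genes in Apc Eif3h, 1.49-fold in Apc and 2.83-fold in WT, against 1.43-fold, 1.32-fold and 1.40-fold over all genes tested. A range of more than 2-fold was seen for 10 of the 44 genes in Apc Eif3h, 5 in Apc and 30 in WT (68.2%, against 18.7% of all genes in WT). WT replicate 1 was the highest WT library for 38 genes, replicate 4 for 5 and replicate 2 for 1, while replicate 3 was the lowest for 28, replicate 2 for 15 and replicate 4 for 1. Replicate 4 was the only WT library from a female. In Apc Eif3h, replicate 1 was the highest library for 31 genes. Replicate 2, the library rich in B cell transcripts, was the highest for 5, which were Irf8, Socs1, Oas2, Ubd and Gbp4. The summed level of the IFIT and OAS genes was 278 to 417 CPM in Apc Eif3h, 226 to 318 CPM in Apc, and 796, 238, 251 and 520 CPM in WT replicates 1 to 4. The sum of the guanylate-binding proteins was 53.6 to 81.4 CPM in Apc Eif3h, 50 to 58.2 CPM in Apc and 89.1 to 151 CPM in WT, so neither range overlapped that of WT. Without WT replicate 1, 12 genes in place of 19 were lower in Apc Eif3h and 15 in place of 24 in Apc, and without Apc Eif3h replicate 4 or Apc replicate 2 the counts were 11 and 15.

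Markers of immune cells also differed between libraries. T and NK cell markers summed to 118 to 220 CPM in Apc Eif3h, 113 to 176 CPM in Apc, and 527, 329, 197 and 622 CPM in WT replicates 1 to 4. Of 17 tested markers of these cells, 12 (70.6%) were lower in Apc Eif3h against WT and 14 (82.4%) in Apc against WT, with 0 higher. Of all genes, 28.1% and 24.1% were lower in these 2 comparisons. The defining marker Cd3e was at 4.81, 11.2, 6.70 and 6.65 CPM in Apc Eif3h, 6.06, 5.75, 6.36 and 3.63 CPM in Apc, and 21.6, 11.4, 5.57 and 21.5 CPM in WT. WT replicate 3 was the lowest WT library for all 17 tested T and NK cell markers and for 28 of the 44 genes. Replicate 2 was the lowest for 0 of these markers and 15 of the 44 genes. The highest WT library was replicate 4 for 13 markers and 5 of the 44 genes, and replicate 1 for 4 and 38. Of 15 macrophage and dendritic cell markers, WT replicate 1 was the highest for 11 and replicate 3 the lowest for 13. These numbers were 8 and 7 of 9 B and plasma cell markers, and 8 and 7 of 11 stromal and endothelial markers. They were 4 and 4 of 7 plasmacytoid dendritic cell genes and 1 and 2 of 2 neutrophil markers. For 12 enterocyte markers, WT replicate 1 was the highest for 0 and the lowest for 8. In Apc Eif3h, replicate 1 was the highest library for 31 of the 44 genes. It was the lowest for 11 of 17 T and NK cell markers and 6 of 9 B and plasma cell markers. Macrophage and dendritic cell markers summed to 263 to 502 CPM in Apc Eif3h, 299 to 352 CPM in Apc and 326 to 860 CPM in WT, and 9 of 15 were lower in each comparison with WT. B and plasma cell markers summed to 315, 1581, 444 and 458 CPM in Apc Eif3h replicates 1 to 4, 365 to 963 CPM in Apc and 832 to 2798 CPM in WT. Of 9 tested, 2 were lower and 1 higher in Apc Eif3h against WT, and 1 was lower and 0 higher in Apc against WT. Genes listed for plasmacytoid dendritic cells summed to 46.9 to 96.8, 55.8 to 74.5 and 76.9 to 105 CPM in the same order of groups. Whether these genes are specific to those cells in this tissue was not checked. Neutrophil markers summed to 12 to 19.7, 16.1 to 29.8 and 20 to 40.4 CPM. Of the defining markers only Ly6g and S100a9, both of neutrophils, were at 0 in any library. Enterocyte markers summed to 18980 to 31460 CPM in Apc Eif3h, 16150 to 26230 CPM in Apc and 37640 to 51480 CPM in WT, and stromal and endothelial markers to 1285 to 1471, 1498 to 2004 and 1997 to 2715 CPM. Of 12 enterocyte markers, 9 were lower in Apc Eif3h against WT and 10 in Apc against WT, with 0 higher. Of 11 stromal and endothelial markers, 10 and 6 were lower, with 0 higher. The part of these cell types in the differences of the interferon-stimulated genes was not tested. Between Apc Eif3h and Apc, 0 of 17 tested T and NK cell markers and 0 of 9 B and plasma cell markers were called. The same held for 0 of 15 macrophage and dendritic cell markers, where 4.27% of all genes were called higher and 2.78% lower. The median log2 fold change of the B and plasma cell markers was 2.71 there, with SEs of 0.42 to 1.89. Apc Eif3h replicate 2 was the highest Apc Eif3h library for 8 of these 9 markers. In Apc Eif3h their highest library was above the lowest by a median of 49.6-fold. Of 7 tested genes listed for plasmacytoid dendritic cells, 1 was called there, Klk1, which was lower (-0.83, adjusted p = 0.0202). The log2 fold changes of the 7 ran from -0.83 to 1.38, with 2 above 0.

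**Figure D5:**
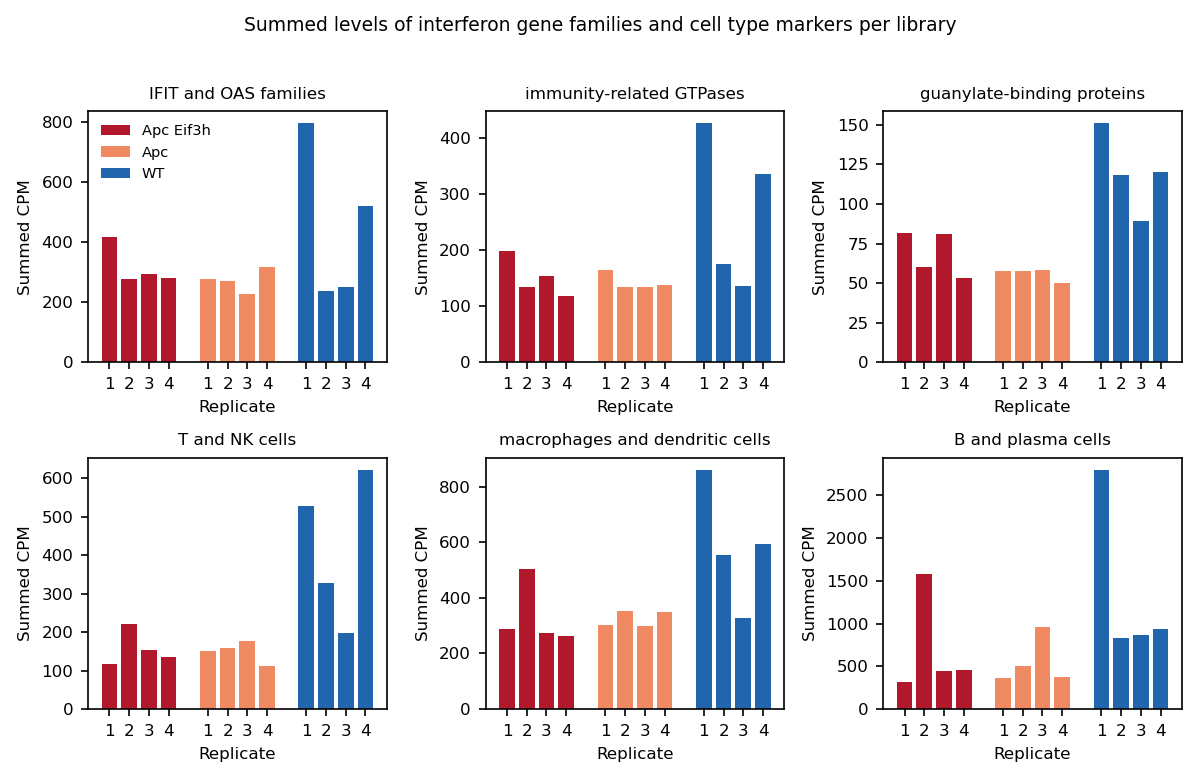
Summed CPM per library of 3 interferon gene families (top) and of 3 immune cell marker lists (bottom), with replicates 1 to 4 of Apc Eif3h, Apc and WT from left to right. WT replicates 1 and 4 have the tallest bars for the IFIT and OAS genes, the immunity-related GTPases and the T and NK cell markers, and Apc Eif3h replicate 2 stands out only in the B and plasma cell panel and, less, in the 2 other marker panels.

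The rest of the interferon pathway was examined from lists of genes. Of 21 interferon genes, 14 had 0 reads in all libraries and 7 had reads, with at most 3 reads for 1 gene in a library. Their sum was 0 to 6 reads per library, and none passed the filter. Interferon gamma (Ifng) had 0, 2, 0 and 0 reads in Apc Eif3h, 0, 1, 0 and 1 in Apc, and 3, 1, 2 and 1 in WT, too few for a comparison at this depth, and interferon beta (Ifnb1) had 0 reads in all 12 libraries, where a count of 0 allows up to 3 reads in a library. Of 9 receptor subunits and kinases, 9 were lower in Apc Eif3h against WT, 6 in Apc against WT and 0 between Apc Eif3h and Apc. Among all genes, 28.1%, 24.1% and 2.78% were lower in the same order of comparisons. Ifnlr1, the type III interferon receptor, was at 25.4, 23.9, 29.5 and 27.5 CPM in Apc Eif3h, 25.6, 34.2, 30.2 and 29.9 CPM in Apc, and 37.7, 43.7, 46.7 and 47.0 CPM in WT. All WT libraries were above the rest, and Ifnlr1 fell by 0.72 in Apc Eif3h (SE 0.11, adjusted p = 0.00014) and by 0.54 in Apc (SE 0.11, adjusted p = 0.00122). WT replicate 1 was the lowest WT library for this receptor. The interferon gamma receptor Ifngr1 and the kinase Jak2 fell by 0.51 and 0.64 in Apc against WT (adjusted p = 0.000322 and 0.000463).

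Among 11 other signal transducers, Irf3, which is activated downstream of nucleic acid sensors, rose in Apc Eif3h against Apc by 0.40 (SE 0.07, adjusted p = 0.00708). It was at 94.2, 107, 96.8 and 97.8 CPM in Apc Eif3h, 75.0, 79.1, 75.7 and 70.8 CPM in Apc, and 82.9, 73.8, 75.2 and 77.4 CPM in WT. Every Apc Eif3h library was above all libraries of the other groups. Irf2, which competes with Irf1 for its sites, fell by 0.50 in Apc Eif3h against WT (adjusted p = 0.000504) and by 0.67 in Apc against WT (adjusted p = 9.25e-05). Of 16 tested adaptors and kinases of nucleic acid sensing, 2 rose (12.5%) and 6 fell (37.5%) in Apc Eif3h against WT. There, 29.8% of all genes rose and 28.1% fell. In Apc against WT, 3 rose (18.8%) and 5 fell (31.2%), where 27.7% of all genes rose and 24.1% fell. The kinase Ikbke was the 1 called in Apc Eif3h against Apc, where it fell by 0.40 (SE 0.10, adjusted p = 0.0376). It lost that call without WT replicate 4 (0.051), without Apc replicate 2 (0.1), 3 (0.116) or 4 (0.0515), and without Apc Eif3h replicate 1 (0.0789), 2 (0.0833) or 4 (0.104). The DNA sensor cGAS (listed as Mb21d1) was among the genes that rose in Apc against WT, by 1.53 (adjusted p = 0.000659). It was also called higher in Apc Eif3h against WT.

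Of 45 tested further interferon-induced genes, 2 rose and 26 fell in Apc Eif3h against WT, 3 rose and 24 fell in Apc against WT, and 0 rose and 2 fell in Apc Eif3h against Apc. Among all genes, 29.8%, 27.7% and 4.27% rose and 28.1%, 24.1% and 2.78% fell in the same order of comparisons. The 3 that rose in Apc were Ifitm1, Ifitm2 and Ifitm3, which encode membrane proteins that block virus entry. Ifitm2 was at 56.3, 55.0, 66.8 and 48.3 CPM in Apc Eif3h, 89.8, 82.8, 77.3 and 78.4 CPM in Apc, and 40.9, 31.8, 36.3 and 39.6 CPM in WT. The 3 groups did not overlap, which no member of the 44 showed in this order. Ifitm2 rose by 1.14 in Apc against WT (SE 0.11, adjusted p = 1.37e-05), by 0.61 in Apc Eif3h against WT (SE 0.11, adjusted p = 0.000489) and fell by 0.54 in Apc Eif3h against Apc (SE 0.11, adjusted p = 0.0124). Ifitm1 fell by 0.91 in Apc Eif3h against Apc (SE 0.21, adjusted p = 0.024), a call lost without Apc replicate 2 (0.0656) or 3 (0.0745) and without Apc Eif3h replicate 1 (0.0522), 2 (0.0615) or 4 (0.0539). Ido1, a tryptophan-degrading enzyme induced by interferon gamma, was at 15.4, 10.8, 23.0 and 11.7 CPM in Apc Eif3h, 14.8, 15.3, 12.3 and 7.27 CPM in Apc, and 50.7, 46.6, 53.0 and 78.4 CPM in WT. It fell by 2.21 in Apc against WT (SE 0.28, adjusted p = 6.5e-05) and by 1.91 in Apc Eif3h against WT (SE 0.27, adjusted p = 0.000106). Of 13 genes of MHC class I presentation, 10 were lower in Apc Eif3h against WT and 11 in Apc against WT, with H2-K1 at 1048 to 1437 CPM in Apc Eif3h, 826 to 1051 CPM in Apc and 1651 to 2677 CPM in WT. Of 8 genes of MHC class II presentation, 3 (37.5%) and 1 (12.5%) were lower, where 28.1% and 24.1% of all genes were.

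Calls were also counted by promoter motif. Among all genes, 28.1% were lower in Apc Eif3h against WT and 24.1% in Apc against WT. Of the 19 genes with an ISRE-like match, 8 were lower in Apc Eif3h against WT and 10 in Apc against WT, with median log2 fold changes of -0.59 and -0.76. Of the 12 with a window and no ISRE-like match, 4 of which had a GAS-like match, 5 were lower in Apc Eif3h against WT and 6 in Apc against WT, with medians of -0.45 and -0.60. Of the 10 genes with a GAS-like match, among them Irf1, Igtp and Irgm2, 7 were lower in Apc Eif3h against WT and 5 in Apc against WT, against 6 and 11 of the 21 without one. No difference between these sets was tested.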

How the data were processed

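Small intestinal RNA was isolated with RNeasy Micro columns, made into TruSeq RNA libraries and sequenced on a NextSeq 500 in pairs of 36 cycles, per the labels' protocols. The authors deposited raw counts per gene. Per the submitters' processing notes, HISAT2 2.1.0, featureCounts 1.6.4, Trim Galore 0.6.4, FastQC 0.11.8 and the build GRCm38 were used. The sources used here give no annotation, strand setting or treatment of multi-mapping reads, so reads of near-identical, overlapping or antisense genes may be split or lost. Symbols and gene lengths came from GENCODE M21 (GRCm38), which matched 55240 of 55421 identifiers. The 181 others held 0.00226% of counts.

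Genes were selected by symbol. Members, roles, pathway lists and markers were chosen with earlier results of these data known, and the pathway lists describe and do not test. Values for every library were given for up to 2 called members per role and comparison with the smallest p, or the member with the smallest p where none was called. For pathway lists the rule took up to 3 called genes per comparison, and only some of the genes it took are named above. Usp18, Rsad2, Isg15 and the genes given with fold changes alone were named outside this rule. A result for 1 pathway gene is not reported here.

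Counts were fitted with edgeR 4.0.16 in R 4.3.3 (filterByExpr with a minimum count of 10, TMM, glmQLFit without the legacy option, glmQLFTest) on all 12 libraries with 1 mean per group, which tested 17394 genes, with Benjamini-Hochberg adjustment over them and calls at an adjusted p below 0.05. Log2 fold changes and their SE, taken as the absolute value over the square root of F, come from this fit. DESeq2 1.42.0, library totals, DESeq2 size factors, no filter, 2 groups alone, males only, a replicate block and 12 fits that left out 1 library were alternatives. In simulated counts, 64.5%, 48.3% and 73.1% of genes changed by a log2 fold change of 1 were recovered in Apc Eif3h against Apc, Apc Eif3h against WT and Apc against WT. They rest on 76, 60 and 67 genes. The simulation changed far fewer genes than were called in the data, so its shares need not hold there. Same-numbered libraries had correlations of -0.142 to 0.236, with 3 of 12 above 0.1, so numbers were not taken as pairs. Replicates differed by more than counting error (chi-square per gene of 16.5 to 47.8 over 18 pairs).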

Additional observations from a re-analysis of the deposited data

Results flagged for a closer look

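Of 132 groups of 4 values checked (44 genes in 3 groups), 5 held a library whose gap to its nearest neighbour exceeded Dixon's 95% critical value for 4 samples, where chance gives about 1 in 20. In Apc Eif3h, replicate 1 was high for Ifit3 at 24.5 CPM and for Oasl2 at 186 CPM, and replicate 3 was high for Ifi35 at 150 CPM. In WT, replicate 2 was low for Irf1 at 205 CPM, and replicate 1 was high for Irf9 at 97.4 CPM.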

How the results depend on the processing

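Fits on fewer libraries repeated the filter on low counts, and DESeq2 differs from edgeR in scaling, spread model and test at once. The gene lost from or added to a count is named where there was 1, and no cause of a moved count was tested. DESeq2 called 2 genes higher in Apc Eif3h against Apc (Ifi35 added), males only gave 0 and leaving out 1 library gave 0 to 1. Losses listed gene by gene above are mostly from fits that left out 1 library. Library totals only gave 11 lower and 1 higher (Cxcl10) in Apc Eif3h against WT, the replicate block 1 higher (Cxcl10), males only 13 lower, and leaving out 1 library 11 to 25 lower and 0 to 1 higher. Library totals only lost the calls of Irf8, Mx1, Gbp3, Igtp, Iigp1, Ifi47, Ifi27 and Ifi35. Males only lost those of Ubd, Gbp3, Igtp, Iigp1, Ifi47 and Ifi35, and 2 groups alone those of Ubd, Gbp3, Igtp and Iigp1. In Apc against WT, library totals only gave 13 lower and 1 higher (Ifit2), the replicate block 1 higher (Ifit2), males only 14 lower, and leaving out 1 library 15 to 30 lower and 0 to 1 higher. Library totals only lost the calls of Irf9, Ifit1, Oas3, Mx1, Gbp6, Gbp7, Iigp1, Ifi47, Cxcl9, Cxcl10 and Rtp4 there. Males only lost the same calls except that of Gbp7, and 2 groups alone lost those of Ifit1, Oas3 and Rtp4. Medians over fits that left out 1 library were 0.05 to 0.19, -0.76 to -0.25 and -0.85 to -0.46 in the same order of comparisons. Library totals only gave 6817 genes higher and 2393 lower among all genes in Apc against WT and 6605 and 3175 in Apc Eif3h against WT. With the replicate block, Oas3 and Gbp6 lost their calls in Apc against WT, and Ubd and Ifi27 did in Apc Eif3h against WT, where Stat2 and Cxcl10 gained one. When 1 library was left out, the log2 fold change took both signs for 12 of the 44 genes in Apc Eif3h against Apc, 14 in Apc Eif3h against WT and 7 in Apc against WT, 0 of them called. Among these in Apc Eif3h against WT were Usp18 (-0.51 to 0.32), Isg15 (-0.71 to 0.26), Rsad2 (-0.97 to 0.21), Bst2 (-0.15 to 0.33) and Ifit3 (-0.38 to 0.50). Socs1 was -0.07 to 0.43 in Apc Eif3h against Apc (lowest without Apc Eif3h replicate 2) and -0.51 to 0.03 in Apc Eif3h against WT (highest without WT replicate 1), and library totals only gave 0.00 there. Named pathway genes were refitted under the same alternatives after they were named. Of genes with a log2 fold change of 0.5 in simulated counts, 11.3%, 17.7% and 19.3% were recovered, so changes of that size can be missed.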
